A study of Homo sapiens with 12 samples.

Results

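This report describes 10 genes of the NF-kappaB pathway in OPM-1 cells, a human multiple myeloma cell line, out of 38478 genes in the expression table. The genes were chosen by name, with earlier results of these data known. They are the 5 subunit genes NFKB1, NFKB2, RELA, RELB and REL, the inhibitor genes NFKBIA and NFKBIE, and TNFAIP3, BIRC3 and TRAF3, whose products regulate signalling. All 10 were in the table, and all 10 passed the filter on low values that left 11241 genes for testing. For 48 h, OPM-1 cells received the solvent DMSO alone, lenalidomide (LEN) at 0.1 μM, the RUNX inhibitor AI-10-104 at 1 μM, or both of these drugs at those doses (LEN+AI-10-104, called the combination here), and 3 replicates of each condition gave 12 samples of polyadenylated RNA. Lenalidomide directs the ubiquitin ligase cereblon to the transcription factors IKZF1 and IKZF3, which are then degraded, and AI-10-104 keeps RUNX transcription factors from binding their partner CBFβ. All samples came from a single established line at a single time and a single dose of each drug, and levels of protein, processing of p100 or nuclear localization were not measured here. The study asked how gene expression responds to the drugs alone and together.

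NF-kappaB transcription factors are dimers. In the canonical branch, RELA or REL pairs with p50, the processed product of NFKB1, and the dimers are held in the cytoplasm by IkB proteins such as those encoded by NFKBIA and NFKBIE until the IKK kinase complex marks the IkB for destruction. In the alternative branch the kinase NIK, encoded by MAP3K14, drives processing of the NFKB2 product p100 to p52, which pairs with RELB, whereas TRAF3 together with the ubiquitin ligases encoded by BIRC2 and BIRC3 keeps NIK low. NFKBIA, NFKBIE, TNFAIP3, BIRC3, NFKB2 and RELB are textbook targets of NF-kappaB itself, so the pathway is wired with feedback. Lesions that activate the pathway, among them loss of TRAF3 or BIRC3, recur in multiple myeloma, and NF-kappaB supports survival of plasma cells.

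The start regions of these genes were read for the letters that NF-kappaB and RUNX proteins recognize, because the conditions compared include a RUNX inhibitor. RefSeq promoter windows (GRCh38.p14, 250 bases before to 50 bases after a start site) were at hand for 8 of the 10 genes, 12 windows in all. RELB and NFKBIE had none. On either strand, the 10-base kappaB consensus occurred in 8 of the 12 windows and in 7 of the 8 genes, RELA being the gene without it, against 5.91% of 35116 windows of all genes. A RUNX site, TGTGGT or TGCGGT on either strand, occurred in 2 of the 12 windows, at bases -17 to -12 of 1 NFKB2 window and at -151 to -146 of the BIRC3 window, against 19.6% of all windows. The shorter string GGGAA, which is the core of an Ikaros site and also lies inside many kappaB matches, was in 10 of 12 windows, against 65.0% of all windows. These matches describe letters and not binding. The following lines show, 5′ to 3′ with kappaB matches in capitals, the 4 NFKB2 sites and the BIRC3 stretch that holds its kappaB pair and its RUNX site, as NFKB2 and BIRC3 are the genes of the results below with a window. The NFKBIA, TNFAIP3 and NFKB1 sites follow for contrast, from 3 of the genes that met the threshold for a change in no comparison. REL and TRAF3 also met it in none, and their kappaB matches, at bases -47 to -37 and -33 to -24, are not printed.
NFKB2 at chr10:102394462-102394490, plus strand, over an annotated exon: aaacgtcatGGGAATTCCCCcctccgggg
NFKB2 at chr10:102394490-102394519, plus strand, over an annotated exon: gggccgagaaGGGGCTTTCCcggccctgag
NFKB2 at chr10:102395519-102395548, plus strand, within the gene outside annotated exons: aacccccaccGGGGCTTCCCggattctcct
NFKB2 at chr10:102395674-102395703, plus strand, over an annotated exon: tggtattttcGGGACTTTCCtaagctgctc
BIRC3 at chr11:102317265-102317378, plus strand, before the gene: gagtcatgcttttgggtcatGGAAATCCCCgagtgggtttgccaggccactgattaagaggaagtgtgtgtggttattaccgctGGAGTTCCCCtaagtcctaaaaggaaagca
NFKBIA at chr14:35404811-35404840, minus strand, before the gene: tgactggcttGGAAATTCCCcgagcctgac
TNFAIP3 at chr6:137867188-137867217, plus strand, over an annotated exon: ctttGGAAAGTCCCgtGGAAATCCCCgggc
NFKB1 at chr4:102501300-102501329, plus strand, before the gene: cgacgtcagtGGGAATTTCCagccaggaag

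Levels are given as RPKM, reads per kilobase of gene length scaled to the reads counted on genes in each sample, as mean ± SD over the 3 replicates of a condition. Between 16352548 and 31386210 reads per sample lay on genes, and the combination was the shallowest condition, with a highest sample of 20419807. No value of the 10 genes rested on fewer than 291 reads, and the most reads, 18357, were on BIRC3. The identity of the cells was checked against marker genes: 10 of 10 plasma cell markers had a median of at least 0.5 RPKM, led by JCHAIN at 3276, while 1 of 5 B cell markers did (CIITA, at 3.04) and none of 15 T and NK cell, monocyte, epithelial and fibroblast markers did. PAX5, CD22, EPCAM and CDH1 were at a median of 0. AI-10-104 replicate 2 stood apart from the other replicates of that condition: without it the number of genes that differed between AI-10-104 and DMSO was 443 in place of 199. Calls of the genes named below that changed without it are given both ways.

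In DMSO the 10 genes covered a range from about 5 to about 65 RPKM. BIRC3, which encodes the ubiquitin ligase cIAP2, was the highest at 65.5 ± 6.71 RPKM and ranked 1019 of the 11241 tested genes. TNFAIP3, whose product A20 edits ubiquitin chains to switch off signalling, followed at 58.0 ± 2.25 RPKM (rank 1174), and the 2 genes overlapped, as the lowest BIRC3 sample was at 60.1 and the highest TNFAIP3 sample at 60.5. NFKB2 (43.7 ± 2.10 RPKM) and RELA (42.7 ± 1.47 RPKM), which encodes the main activating canonical subunit, overlapped as well. RELB was next at 28.1 ± 0.564 RPKM and NFKB1 at 20.3 ± 0.112 RPKM, neither overlapping its neighbours. NFKBIA and TRAF3 were both at 15.2 RPKM (SD 0.610 and 0.496), and NFKBIE, at 5.23 ± 0.568 RPKM, overlapped REL, at 4.93 ± 0.255 RPKM. Transcripts of both branches were thus present in DMSO, without either drug, with the REL transcript the least abundant subunit. These ranks depend on the gene lengths used for the deposited values. The NFKB1 value, for example, used 4425 bases, while all annotated exons of NFKB1 in GENCODE 44 (chr4:102501330-102617302) cover 15679 bases. That choice cancels in comparisons of a gene between conditions.

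**Figure D1:**
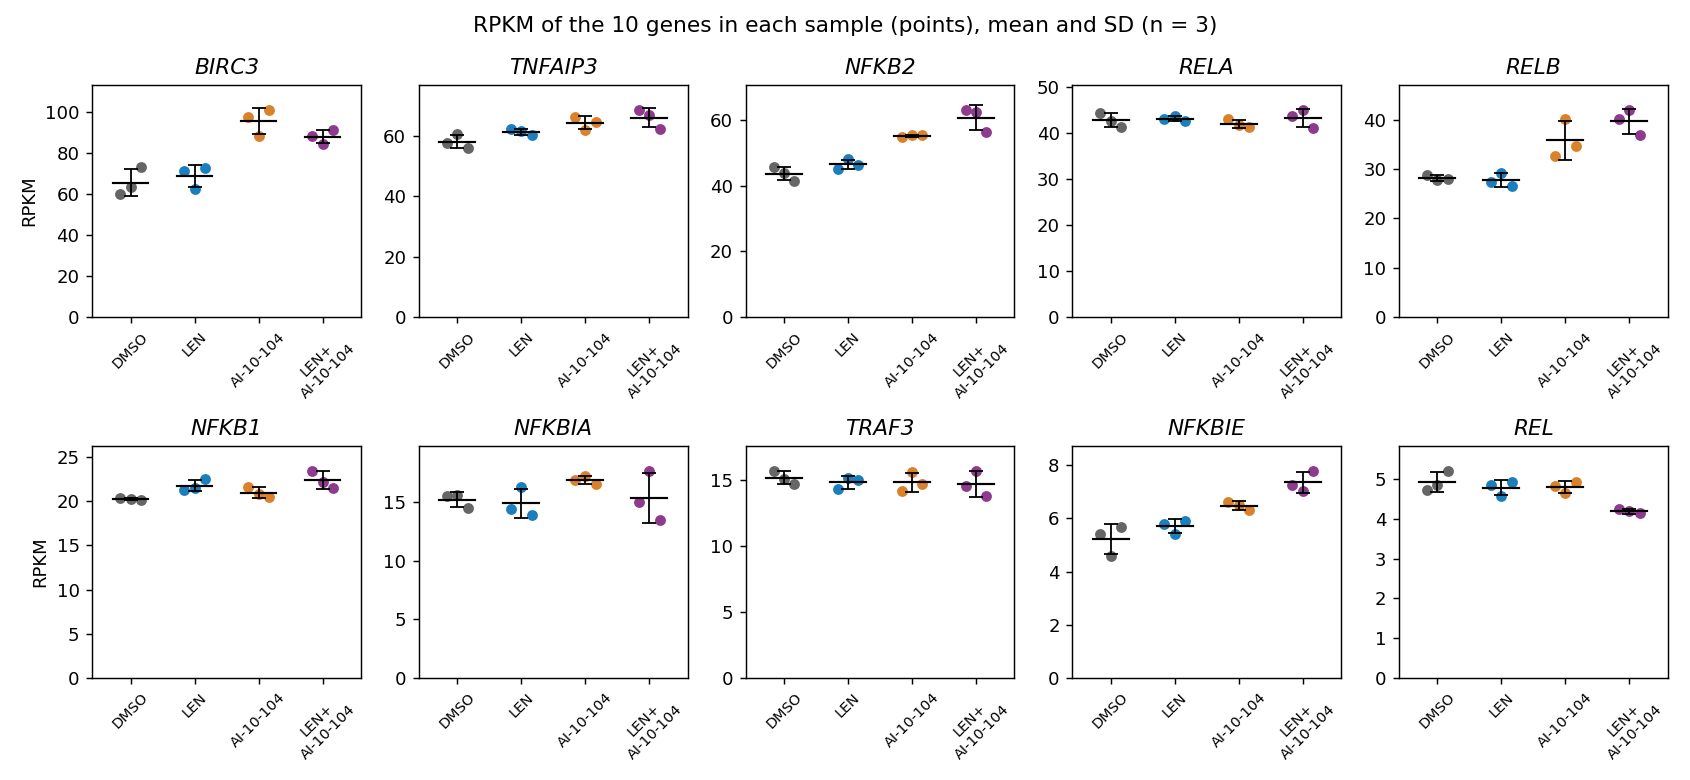
Level of each of the 10 genes (y axes, RPKM, starting at 0, a separate scale per gene) in the 4 conditions (x axes). Points are single samples and bars mark the mean with its SD over 3 replicates. NFKB2, RELB, NFKBIE and BIRC3 are higher in both conditions with AI-10-104 than in DMSO, while the samples of RELA and of TRAF3 overlap between all conditions.

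In the plot of levels by condition, NFKB2, RELB, NFKBIE and BIRC3 stand higher wherever AI-10-104 was present, REL stands lowest in the combination, and RELA and TRAF3 overlap throughout. The comparisons that follow were made with limma's moderated test on log2(RPKM + 0.1), fitted to all 12 samples and adjusted over all 11241 genes by the Benjamini-Hochberg method. A gene is said to have risen or fallen where the adjusted p was at most 0.05 and the log2 fold change at least 0.32 in size. Log2 fold changes are followed by their standard error (SE). The comparisons of LEN, of AI-10-104 and of the combination with DMSO share the same 3 DMSO samples.

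LEN alone changed none of the 10 genes at the threshold. Of all tested genes 0.649% were called, too few for a count of 0 among 10 to set these genes apart. Log2 fold changes against DMSO ran from -0.04 for REL to 0.13 for NFKBIE, with a median of 0.04 over the 10 genes and of 0.00 over all tested genes. The lowest adjusted p, by limma, was 0.34, for NFKB1. This gene was at 20.4, 20.3 and 20.2 RPKM in DMSO and at 21.3, 21.6 and 22.5 RPKM with LEN, the only one of the 10 whose LEN samples were all above the DMSO samples, as were those of 9.42% of all genes. NFKB1 was also the only one of the 10 with an unadjusted p under 0.05 (log2 fold change 0.10, SE 0.04), and 1206 of all tested genes had such a p. For BIRC3 the LEN samples were at 70.9, 62.5 and 72.7 RPKM and the DMSO samples at 60.1, 63.5 and 73.0 RPKM, and for RELB they were at 27.4, 29.3 and 26.5 against 28.8, 27.7 and 27.9 RPKM, overlapping in both cases. The 95% intervals of the log2 fold changes lay between -0.22 and 0.29 for all 10 genes, so a change by LEN as large as the threshold was outside each interval.

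AI-10-104 alone raised BIRC3, NFKB2 and RELB, and lowered none of the 10 genes. These 3 of 10 compare with 0.685% of all tested genes called higher in this comparison, 1.77% in either direction. The 10 genes were chosen with earlier results of these data known. Such shares, here and below, describe the genes and are no test of the set. Without AI-10-104 replicate 2, the share of genes called higher was 1.28%, and BIRC3 and NFKB2 were called. The median log2 fold change of the 10 genes was 0.15, and that of all tested genes 0.01. In 7 of the 10 genes all 3 AI-10-104 samples were above all 3 DMSO samples, as in 13.1% of all genes.

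BIRC3 moved most. Its samples were at 60.1, 63.5 and 73.0 RPKM in DMSO and at 97.3, 88.3 and 100.9 RPKM with AI-10-104, so that the lowest treated sample was above the highest control. The log2 fold change was 0.55 (SE 0.08, limma adjusted p = 0.0023), which is 1.46-fold. BIRC3 kept this call without each of the 12 samples in turn.

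NFKB2, the gene of the p100 precursor of the alternative branch, was at 45.7, 44.0 and 41.5 RPKM in DMSO and at 54.8, 55.5 and 55.3 RPKM with AI-10-104. The 3 treated samples lay within 1 RPKM of each other and far above the controls, with a log2 fold change of 0.34 (SE 0.05, limma adjusted p = 0.0024). Without DMSO replicate 3 the adjusted p was 0.012 and the log2 fold change 0.30, under the threshold. RELB, the partner of p52, was at 28.8, 27.7 and 27.9 RPKM in DMSO and at 32.5, 40.1 and 34.8 RPKM with AI-10-104. All 3 treated samples were above the controls, with replicate 2 well above the other pair, and the log2 fold change was 0.34 (SE 0.07, limma adjusted p = 0.021). Without that replicate it was 0.26 (adjusted p = 0.018), under the fold threshold, and without any 1 of the DMSO samples, or without AI-10-104 replicate 3, the adjusted p was between 0.055 and 0.078. The RELB call was thus lost in 5 of the 12 fits that each left out a sample.

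Among the inhibitor genes, NFKBIE, which encodes IkB epsilon, lay at the edge of the threshold. It was at 5.42, 4.59 and 5.68 RPKM in DMSO and at 6.63, 6.51 and 6.31 RPKM with AI-10-104, without overlap, and its log2 fold change was 0.31 (SE 0.07, limma adjusted p = 0.034), just under the 0.32 required. NFKBIA, which encodes IkB alpha, was at 15.5, 15.6 and 14.5 RPKM in DMSO and at 16.9, 17.2 and 16.5 RPKM with AI-10-104 (log2 fold change 0.15, SE 0.08, limma adjusted p = 0.33). TNFAIP3 was at 57.5, 60.5 and 56.1 against 66.3, 61.9 and 64.6 RPKM (0.15, SE 0.04, adjusted p = 0.075). For both genes the samples did not overlap but the test was not passed. RELA, REL, NFKB1 and TRAF3 had log2 fold changes between -0.04 and 0.05, and their 95% intervals reached from -0.15 to 0.13. BIRC3 and TRAF3 belong to the same NIK-restraining complex, and TRAF3 stood at 15.7, 15.1 and 14.7 RPKM in DMSO and at 14.2, 15.6 and 14.7 RPKM with AI-10-104, overlapping throughout.

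**Figure D2:**
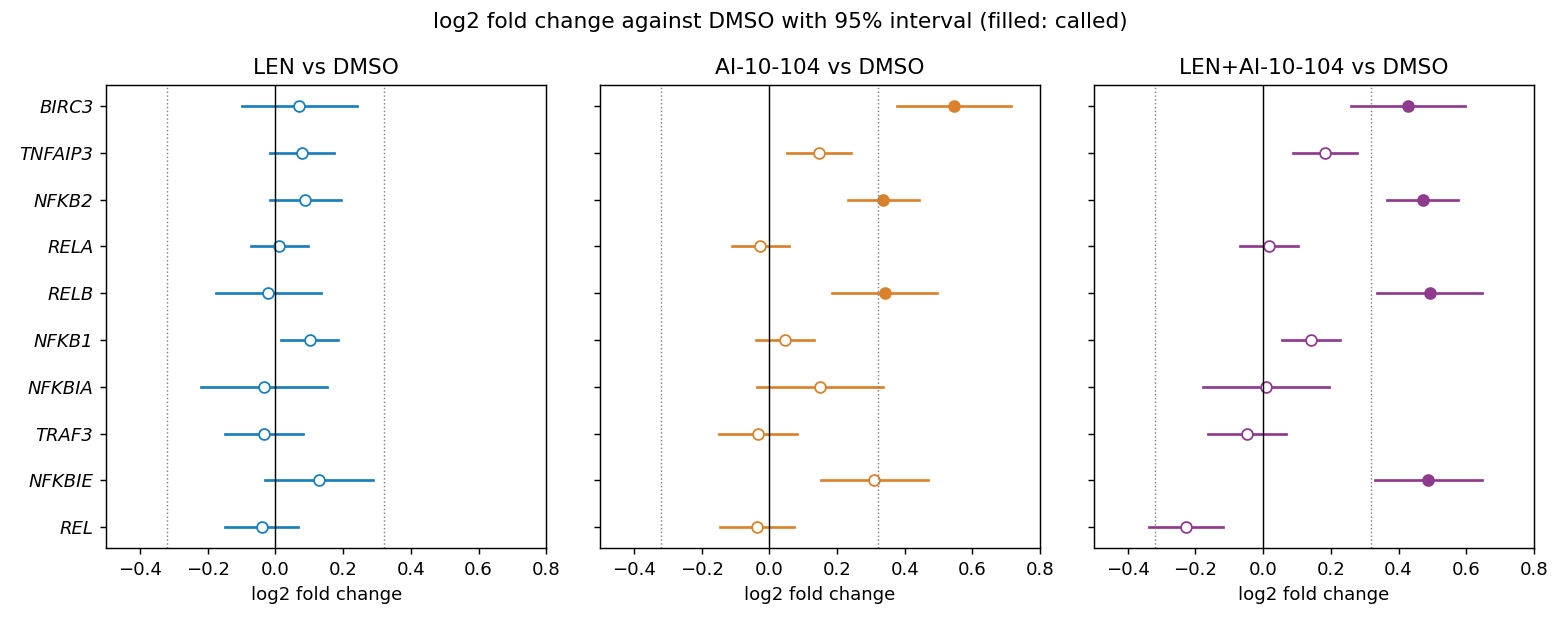
Log2 fold change against DMSO (x axes) of each of the 10 genes (rows) with LEN, AI-10-104 and the combination (panels), from limma. Points are estimates, filled where called, bars are 95% intervals and dotted lines mark 0.32 in either direction: LEN has no filled point, AI-10-104 has BIRC3, NFKB2 and RELB, and the combination has these and NFKBIE.

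With both drugs, RELB, NFKBIE, NFKB2 and BIRC3 rose against DMSO. These 4 of 10 compare with 2.3% of all tested genes called higher. All 4 kept the call without each of the 12 samples in turn. With quantile normalization the split over all genes moved from 259 higher and 72 lower to 181 higher and 111 lower, and the same 4 of the 10 genes were called.

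The combination samples of NFKB2 were at 63.2, 62.6 and 56.4 RPKM (60.7 ± 3.75), all above every sample of the other 3 conditions. Its log2 fold change against DMSO was 0.47 (SE 0.05, limma adjusted p = 0.00014), or 1.39-fold. RELB was at 40.1, 42.0 and 36.9 RPKM, all above the DMSO and LEN samples, with a log2 fold change of 0.49 (SE 0.07, adjusted p = 0.0017). The subunit pair of the alternative branch thus reached its highest mean level in the combination.

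NFKBIE was at 7.24, 7.01 and 7.80 RPKM in the combination, above all samples of the other conditions, and its log2 fold change against DMSO was 0.49 (SE 0.07, limma adjusted p = 0.0020). BIRC3 was at 88.3, 84.5 and 91.0 RPKM, above all DMSO and LEN samples but overlapping AI-10-104 alone, with a log2 fold change of 0.43 (SE 0.08, limma adjusted p = 0.0064). BIRC3 was the only one of the 4 genes whose mean was lower in the combination (87.9 ± 3.27 RPKM) than with AI-10-104 alone (95.5 ± 6.47 RPKM), and that difference did not pass the test (-0.12, adjusted p = 0.31).

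TNFAIP3, NFKB1 and REL passed the adjusted p but not the fold threshold in the combination against DMSO, so that 7 of the 10 genes had an adjusted p of at most 0.05, against 8.64% of all tested genes. TNFAIP3 was at 68.5, 66.8 and 62.3 RPKM (log2 fold change 0.18, SE 0.04, limma adjusted p = 0.023), and NFKB1 was at 23.5, 22.2 and 21.5 RPKM (0.14, SE 0.04, adjusted p = 0.044). None of these 3 stayed at or under 0.05 throughout. With a sample left out, the adjusted p reached 0.16 for NFKB1, 0.095 for TNFAIP3 and 0.064 for REL, and NFKB1 also exceeded it with quantile normalization (0.093). REL, the c-Rel subunit gene, went the other way. Its combination samples were at 4.25, 4.19 and 4.14 RPKM, all below the DMSO samples at 4.73, 4.85 and 5.22 RPKM, with a log2 fold change of -0.23 (SE 0.05, limma adjusted p = 0.017). The REL samples of the combination were also below all LEN samples (4.86, 4.58 and 4.92 RPKM) and all AI-10-104 samples (4.83, 4.65 and 4.93 RPKM), with log2 fold changes of -0.19 in both cases and adjusted p of 0.059 and 0.027, the latter reaching 0.10 with a sample left out. RELA, NFKBIA and TRAF3 had log2 fold changes of 0.02, 0.01 and -0.05 against DMSO and overlapped it. The small positive values of RELA and NFKBIA turned negative with median-ratio rescaling, so no direction is given for them.

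The effect of AI-10-104 was also measured on top of LEN, by comparing the combination with LEN. This comparison shares no sample with that of AI-10-104 against DMSO. RELB, NFKB2, NFKBIE and BIRC3 rose, 4 of 10 genes against 0.872% of all tested genes called higher. RELB had a log2 fold change of 0.51 (SE 0.07, limma adjusted p = 0.0018) and NFKB2 of 0.38 (SE 0.05, adjusted p = 0.0012), and both kept the call without each sample in turn. NFKBIE was at 5.80, 5.42 and 5.91 RPKM with LEN, all below the combination, with a log2 fold change of 0.36 (SE 0.07, limma adjusted p = 0.017), and BIRC3 had a log2 fold change of 0.36 (SE 0.08, adjusted p = 0.024). These 2 calls were less steady. Without LEN replicate 1 or 2, or without replicate 1 or 3 of the combination, neither NFKBIE nor BIRC3 was called, leaving 2 of the 10 genes, with adjusted p of 0.051 to 0.078. BIRC3 also lost the call without replicate 2 of the combination (adjusted p = 0.051). With quantile normalization the split over all genes in this comparison moved from 98 higher and 91 lower to 64 higher and 120 lower.

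**Figure D3:**
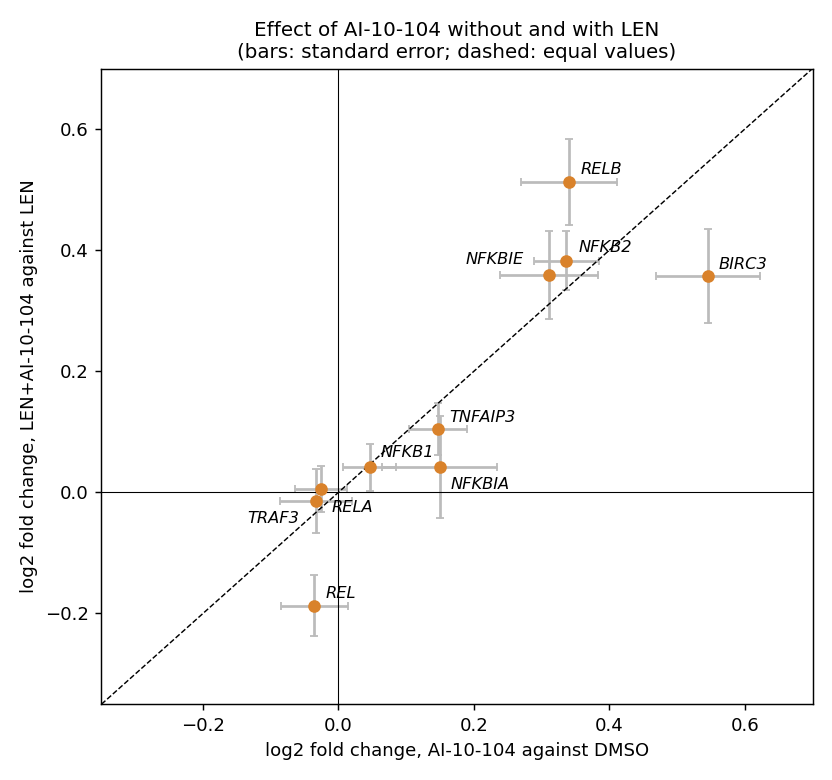
Log2 fold change of AI-10-104 without LEN (x axis, AI-10-104 against DMSO) and with LEN (y axis, combination against LEN) for the 10 genes, with bars of 1 standard error and a dashed line of equal change. RELB lies above the line and BIRC3 below it, and neither difference passed the interaction test (adjusted p of 0.44 for both).

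The interaction term asked whether AI-10-104 acted differently with LEN than without it. It was called for none of the 10 genes and for 0 of 11241 genes (0.0%) by limma, although 1621 genes had an unadjusted p under 0.05, none of the 10 among them, and limma's voom on reads computed back called 3 genes. The largest differences were 0.17 for RELB (SE 0.10, 95% interval -0.05 to 0.39), -0.19 for BIRC3 (SE 0.11, 95% interval -0.43 to 0.05) and -0.15 for REL (SE 0.07, 95% interval -0.31 to 0.00), with adjusted p by limma of 0.44, 0.44 and 0.35. These intervals are wide enough to hold differences of the size of the threshold for RELB and BIRC3. Without AI-10-104 replicate 2, 557 genes passed the interaction test, but none of these 10, and RELB was then at 0.26 with an adjusted p of 0.081.

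LEN added to AI-10-104 changed none of the 10 genes at the threshold. Of all tested genes 3.63% were called (6.82% without AI-10-104 replicate 2), too few for a count of 0 among 10 to set these genes apart. NFKB2 and NFKBIE were higher in every combination sample than in every AI-10-104 sample, as were 19.0% of all genes, with log2 fold changes of 0.14 (SE 0.05, limma adjusted p = 0.076) and 0.18 (SE 0.07, adjusted p = 0.11). RELB was at 0.15 (SE 0.07, adjusted p = 0.16) with overlapping samples. REL alone passed the adjusted p, as described, whereas 15.0% of all genes did.

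Set directly against each other, the 2 single drugs differed for RELB and BIRC3. These were lower with LEN than with AI-10-104, 2 of 10 genes against 1.24% of all tested genes called lower, with log2 fold changes of -0.36 (SE 0.07, limma adjusted p = 0.0070) for RELB and -0.48 (SE 0.08, adjusted p = 0.0023) for BIRC3. NFKB2 was at 45.1, 48.1 and 46.3 RPKM with LEN, all below the AI-10-104 samples, and its log2 fold change of -0.25 (SE 0.05, limma adjusted p = 0.0067) was under the fold threshold. Without AI-10-104 replicate 2 the RELB difference was -0.28 (adjusted p = 0.0085), under the fold threshold, which left BIRC3 as the only one of the 10 genes called, against 1.89% of all genes called lower. The drugs were given at different doses, so these differences hold for the doses used. Across the 4 conditions, mean NFKB2 and NFKBIE levels ordered as DMSO, LEN, AI-10-104 and combination, RELB as LEN, DMSO, AI-10-104 and combination, and BIRC3 as DMSO, LEN, combination and AI-10-104. The step between LEN and AI-10-104 for NFKB2, that between DMSO and AI-10-104 for RELB and that between LEN and the combination for BIRC3 passed the adjusted p, while no other step between neighbours in these orders did.

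Because the subunits compete for partners, their transcripts were also expressed as shares of the summed RPKM of the 5 subunit genes. The sum was 139.8 ± 3.87 RPKM in DMSO, 143.8 ± 2.94 with LEN, 158.7 ± 3.47 with AI-10-104 and 170.2 ± 8.86 in the combination. NFKB2 and RELB together made up 51.4% ± 0.390 of it in DMSO (51.8%, 51.5% and 51.0% in the 3 samples) and 51.6% ± 0.863 with LEN. They made up 57.3% ± 1.53 with AI-10-104 (55.7%, 58.8% and 57.5%) and 59.0% ± 0.600 in the combination (59.1%, 59.4% and 58.3%). All 6 samples with AI-10-104 were above all 6 without it. RELA, which was called in no comparison, went from 30.5% ± 0.206 in DMSO to 25.4% ± 0.361 in the combination, and REL, the smallest share throughout, from 3.53% ± 0.277 to 2.47% ± 0.108. Like the ranks in DMSO, these shares depend on the gene lengths used for the deposited values. RELB used 2279 bases where annotated exons cover 2997, and NFKB1 used 4425 where they cover 15679. Other lengths would give other percentages, so the sizes of the shares hold only for the deposited lengths. The shares describe transcripts and are built from the values tested above, so no separate test was run on them.

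**Figure D4:**
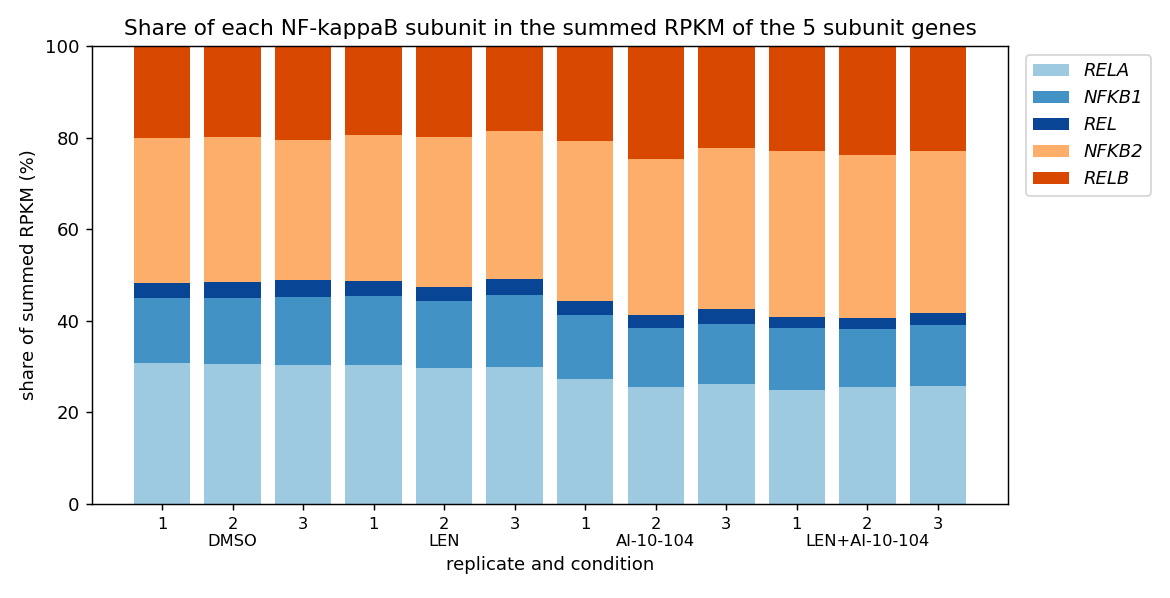
Share (y axis, percent) of each of the 5 subunit genes in their summed RPKM in each of the 12 samples (x axis, replicate and condition). The orange and red segments, NFKB2 and RELB, together hold between 51.0% and 52.6% in the samples without AI-10-104 and between 55.7% and 59.4% in those with it. These percentages depend on the gene lengths used for the deposited values.

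Further genes of the pathway were read from lists. Of 19 genes of the IKK complex and its upstream adaptors, 18 passed the filter, and TRADD, an adaptor of TNF receptor 1, was the only one called in any comparison, 1 of 18 in the combination against AI-10-104, where 3.63% of all tested genes were called. TRADD stood at 6.65 ± 0.890 RPKM with AI-10-104 and 9.03 ± 0.333 RPKM with both drugs (log2 fold change 0.44, SE 0.08, limma adjusted p = 0.0085), and at 7.58 ± 0.166 in DMSO. Without AI-10-104 replicate 2 its log2 fold change was 0.54 (adjusted p = 0.00072). The IKK complex genes CHUK, IKBKB and IKBKG and the NIK-restraining ligase gene BIRC2, the close relative of BIRC3, were called in no comparison. BIRC2 was at 15.9 ± 1.21 RPKM in DMSO and 16.4 ± 1.05 with AI-10-104. Among 10 genes of receptors of the TNF receptor family and of NIK, 7 passed the filter. Of these 7, only TNFRSF12A was called in any comparison. The shares of all tested genes called were 2.94% for the combination against DMSO, 1.68% against LEN and 3.63% against AI-10-104. TNFRSF12A, the receptor of TWEAK, rose in the combination to 15.1 ± 1.14 RPKM from 11.1 ± 0.562 in DMSO (0.44, SE 0.08, limma adjusted p = 0.0074), and was also higher there than with LEN (0.37, adjusted p = 0.025) or AI-10-104 (0.33, adjusted p = 0.023). The call against DMSO was kept in 12 of 12 fits that left out a sample, and the calls against LEN and against AI-10-104 in 8 of 12 each. Without AI-10-104 replicate 2, the difference from AI-10-104 was 0.31 (adjusted p = 0.035), under the fold threshold. TNFRSF17, the plasma cell receptor BCMA, was the most abundant of this list, at 178.5 ± 2.86 RPKM in DMSO, and was not called. The NIK gene MAP3K14 had means of 9.21 ± 0.358 RPKM in DMSO and, with both drugs, 10.2 ± 0.527 RPKM, without passing the test (0.15, SE 0.05, limma adjusted p = 0.083). CD40 had no read in any sample, and LTBR and TNFRSF11A were at 0.007 RPKM or less in every condition mean.

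Of 16 other IkB and negative regulator genes, 15 passed the filter, and none was called in any of the 6 comparisons, in which between 0.649% and 3.97% of all tested genes were called, too few for a count of 0 among 15 to set the list apart. Their medians of log2 fold changes against DMSO were 0.02 with LEN, 0.05 with AI-10-104 and 0.07 in the combination, and those of all tested genes 0.00, 0.01 and 0.02. NFKBIB, which encodes IkB beta, was at 13.5 ± 0.211 RPKM in DMSO, 12.6 ± 1.18 with AI-10-104 and 15.4 ± 0.426 in the combination. CYLD, a deubiquitinase gene inactivated in some myelomas, was at 4.46 ± 0.227, 4.81 ± 0.234 and 4.82 ± 0.399 RPKM in those conditions. BCL3, an atypical IkB that partners p52, stayed between means of 3.76 and 4.45 RPKM.

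Of 25 genes taken as NF-kappaB targets outside the feedback loop, 9 passed the filter. The inflammatory chemokine and cytokine genes CCL2, CCL3, CCL4, CCL5, CXCL2, CXCL8, TNF, LTA and LTB had no read in any sample. This list too was set with earlier results of these data known, so the shares that follow are no test of it. Against DMSO, CD74 and IL2RG rose with LEN, 2 of the 9, where 0.649% of all tested genes were called. With AI-10-104 CD74 rose and GADD45B fell, against 1.77% of all genes called. In the combination CD74, IL2RG and NINJ1 rose, 3 of the 9, against 2.94% called. CD74, the MHC class II invariant chain, was at 32.9 ± 1.69 RPKM in DMSO, 56.0 ± 1.19 with LEN, 58.4 ± 2.05 with AI-10-104 and 93.7 ± 7.86 in the combination, and unlike the 4 genes above it rose with either drug. IL2RG, the common gamma chain of cytokine receptors, was at 148.0 ± 0.849, 198.4 ± 5.88, 177.0 ± 12.7 and 219.1 ± 2.62 RPKM in that order. CD74 is also an interferon-responsive gene, and the study lists it among those higher with both drugs than with either alone. GADD45B, a stress-response gene, was at 17.9 ± 1.64 RPKM in DMSO, 21.9 ± 0.958 with LEN, 13.7 ± 1.07 with AI-10-104 and 17.0 ± 0.515 in the combination, and fell by 0.38 on the log2 scale with AI-10-104 (SE 0.07, limma adjusted p = 0.010). Without AI-10-104 replicate 2 it fell by 0.44, and without replicate 3 the adjusted p was 0.051. This decrease is opposite to the increase of BIRC3 and NFKB2 in the same samples. NINJ1, an adhesion gene, averaged 1.52 ± 0.159 RPKM in DMSO against 2.37 ± 0.221 with both drugs (0.61, SE 0.13, limma adjusted p = 0.014), and kept the call in 9 of 12 fits that left out a sample. CXCL10, a chemokine gene, had means of 0.293 ± 0.115 RPKM in DMSO, 0.434 ± 0.120 with LEN, 0.699 ± 0.0946 with AI-10-104 and 0.643 ± 0.256 with both drugs. It passed the filter on low values only through the samples with AI-10-104, so these levels are a description and no change is called for it. BCL2L1, the survival gene encoding BCL-XL, was at 4.92 ± 0.430 RPKM in DMSO and 5.64 ± 0.249 with AI-10-104 and was not called.

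Patterns over the 12 samples were compared by Pearson's r of log2 values, as a description that treats samples of 4 conditions alike and carries no test. Among the 10 genes, NFKB2 and RELB were the most alike (r = 0.94), NFKB2 followed TNFAIP3 with r = 0.87 and NFKBIE with r = 0.83, and NFKB2 and REL ran in opposite directions (r = -0.76). Over all tested genes, the patterns most like that of NFKB2 were those of CNTROB, DHTKD1 and CTC1 (r of 0.97 each), and those most like RELB were TTC7A, CRY2 (0.96 each) and KHNYN (0.94). The genes most like NFKBIE were EMP3 (0.94), DALRD3 (0.93) and CACNA1A (0.92), and those most like BIRC3 were TNFAIP8 (0.97), HSPA4L and DENND4A (0.96 each). TNFAIP8 encodes a TNF-induced regulator of cell survival.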

How the data were processed

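Poly(A) RNA of OPM-1 cells was sequenced in 4 conditions with 3 replicates each. The study's methods call them biological replicates, while the labels name no separate cultures, so p-values measure the spread between these samples. The authors aligned the reads with STAR to GRCh38, and the submitters' processing notes also name FastQC, Cuffnorm and DESeq2. The authors deposited RPKM values for 38478 genes, 28 of them under a spreadsheet date number in place of a name. Each value corresponded to whole reads (tolerance 0.05 reads), from which reads per sample were computed. Whether counting used strand is not given in the sources used here, and reads shared with overlapping genes cannot be told apart.

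The filter kept genes averaging 0.5 RPKM or more. Their log2(RPKM + 0.1) values entered limma (version 3.58.1, R version 4.3.3), a scale that understates changes of low genes, with 1 mean per condition and a variance trend over all 12 samples. The procedure was tested on simulated data. The replicate number was an alternative block, because the labels number the replicates alike in each condition. The 10 genes, the other lists and the tests were chosen with earlier results of these data known. Genes outside the 10 were named where a fixed list's member was called (at most 6 per list) or where the pattern was among the 3 most like a called gene's. CHUK, IKBKB, IKBKG, BIRC2, MAP3K14, TNFRSF17, NFKBIB, CYLD, BCL3, BCL2L1 and the genes without reads were named after their values were seen. Coordinates and exon lengths are from GENCODE 44 (GRCh38) and promoter windows from RefSeq (GRCh38.p14). Alternatives were pseudocounts of 1 and 0.01, filters of 1 RPKM, 10 reads or no minimum, quantile normalization, rescaling by median ratios, voom on the reads, the replicate block, no fold threshold and leaving out each sample. No sample was left out of the reported fit. Figures used matplotlib 3.10.9, and tables pandas 2.3.3 and numpy 2.4.6 under Python 3.11.15.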

Additional observations from a re-analysis of the deposited data

How the results depend on the processing

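Of 1470 values of the 10 genes under other settings, 1409 kept their direction and their side of the threshold, 19 fell below it, 2 rose above it and 40 changed sign, the last among values that were not called. Without the fold threshold, genes called numbered 127 for LEN, 512 for AI-10-104 and 971 for the combination against DMSO, 519 for the combination against LEN, 1683 for it against AI-10-104 and 1546 for LEN against AI-10-104, and of the 10 genes 4 were called for AI-10-104 and 7 for the combination against DMSO, 1 for the combination against AI-10-104 and 3 for LEN against AI-10-104. The interaction was called for 1 gene with a minimum mean of 10 reads and for 3 with voom. With each sample left out in turn, genes called ran from 35 to 71 for LEN, 119 to 443 for AI-10-104 and 241 to 345 for the combination against DMSO, 127 to 214 for it against LEN, 185 to 767 for it against AI-10-104, 311 to 691 for LEN against AI-10-104 and 0 to 557 for the interaction, and of the 10 genes 2 to 3 were called for AI-10-104 against DMSO, 2 to 4 for the combination against LEN and 1 to 2 for LEN against AI-10-104. The causes were not tested. With no filter on low values, RELB with AI-10-104 (adjusted p = 0.061) and BIRC3 in the combination against LEN (0.069) were no longer called, nor was NFKBIE in the combination against LEN with a pseudocount of 1 (log2 fold change 0.32, under the threshold before rounding), while NFKBIE with AI-10-104 was called with voom (0.33) and without DMSO replicate 3 (0.37).

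The log2 fold changes that changed sign were -0.0039 (median-ratio) for RELA and -0.012 (median-ratio), -0.013 (quantile) and -0.0074 (voom) for NFKBIA in the combination against DMSO, -0.014 (median-ratio) and -0.0099 (quantile) for RELA against LEN, 0.0015 (median-ratio) for REL in LEN against AI-10-104 and -0.0043 (quantile) for the interaction of TRAF3. With each sample left out, they ran for LEN against DMSO from -0.012 to 0.037 (RELA), -0.061 to 0.011 (RELB) and -0.099 to 0.013 (NFKBIA), for AI-10-104 against DMSO from -0.065 to 0.0051 (REL), and for the combination against DMSO from -0.012 to 0.053 (RELA) and -0.096 to 0.099 (NFKBIA). For the combination against LEN they ran from -0.023 to 0.042 (RELA), -0.063 to 0.13 (NFKBIA) and -0.065 to 0.028 (TRAF3), against AI-10-104 from -0.064 to 0.028 (TRAF3), for LEN against AI-10-104 from -0.028 to 0.026 (REL) and -0.032 to 0.038 (TRAF3), and for the interaction from -0.039 to 0.023 (NFKB1), -0.012 to 0.14 (NFKBIE) and -0.031 to 0.061 (TRAF3).

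In the fit with a replicate block, genes called numbered 79, 228 and 368 against DMSO for LEN, AI-10-104 and the combination, 218 for the combination against LEN, 473 for it against AI-10-104, 479 for LEN against AI-10-104 and 0 for the interaction, and the counts of the 10 genes called were as in the fit without it. Deviations of samples with the same number correlated with a mean r of 0.052 over 18 pairs, 2 of them above 0.1, and those of different numbers with -0.026 over 36 pairs, and each of the 12 samples correlated best with its own number, a hint from the data and not from the design.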
